A study of Mus musculus with 9 samples.

Results

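The 44 aminoacyl-tRNA biosynthesis genes of mouse liver were taken from an expression table of 21898 genes by their KEGG pathway (ko00970). Names that start with mt- would have been left out, but the pathway held 0 of them, and a condition of at least 10 counts in at least 3 libraries removed 0 genes. The 44 genes comprised 21 cytosolic synthetase genes, 17 mitochondrial synthetase genes and 6 other genes of the pathway. Mitochondrial synthetases were recognised by a name ending in 2, except that Tarsl2, which encodes a cytosolic threonyl-tRNA synthetase, was placed with the cytosolic ones. All 44 genes passed the filter on low counts that was applied to the whole table.

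Liver RNA of C57BL/6 mice was sequenced in 9 libraries, 3 in each group, and the mice had been allocated to the groups at random. The TA group was kept on an MCD diet (methionine- and choline-deficient, a diet that gives fatty liver) and received tormentic acid, a plant triterpenoid, at a dose that the labels call high. The model group was kept on the MCD diet, with no tormentic acid named. The normal group, labelled WT and normal, was given saline. The amount and length of dosing, the age and sex of the mice, and any vehicle of the TA and model groups are not given in the sources used here. Nothing in the labels ties a library to a mouse of its own, and the p-values therefore cover the spread among these libraries, which may be technical. TA libraries held 13710002 to 16464308 counts in total, model libraries 15519086 to 16086294 and normal libraries 13950065 to 16475794. The 44 genes had between 30 and 9806 counts in a library, the lowest for Pars2 and the highest for Lars2.

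Aminoacyl-tRNA synthetases join each amino acid to its transfer RNA, which then carries it to the ribosome. Most amino acids have a cytosolic synthetase and a separate, nuclear-encoded mitochondrial one, while Kars and Gars serve both compartments from the same gene, and Eprs holds the glutamyl and the prolyl enzyme in the same protein. Mitochondrial glutaminyl-tRNA is made indirectly by the amidotransferase of Gatb, Gatc and Qrsl1, and selenocysteine is built on its transfer RNA through Pstk and Sepsecs. When an amino acid runs short, the kinase GCN2 senses uncharged transfer RNA and the transcription factor ATF4 is translated, which is known to raise many cytosolic synthetase genes together with genes of amino acid synthesis and uptake. The MCD diet lacks methionine, the amino acid joined to transfer RNA by Mars1 in the cytosol and Mars2 in mitochondria.

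ATF4 with a C/EBP partner is known to bind the composite motif TGATGNAA. It was searched on both strands in RefSeq windows (GRCm38.p6) that run from 250 bases before to 50 bases after a gene's start, which were found for 32 of the 44 genes. The motif was in 5 of 14 cytosolic synthetase genes with a window (Tars, Aars, Gars, Yars and Iars), in 0 of 14 mitochondrial ones and in 0 of 4 other members, against 3.97% of all 32851 windows and 4.51% of all genes. It was also in 9 of 27 ATF4 targets outside the pathway. A match of letters is a description of the window and not evidence of binding. Every start named here is that of RefSeq, which can differ from GENCODE M21, the annotation behind the gene coordinates given further below. M21 starts Aars at chr8:111033144, so the stretch shown for Aars lies inside the M21 gene. It starts Yars at chr4:129189760, upstream of the RefSeq start. The 250 bases before the start are shown, 5′ to 3′ on the gene's strand with the motif or its reverse complement in capitals, for 3 of the synthetase genes, of which Tars and Aars fell in model livers and Gars was not called, and for Slc7a11 and Fgf21, ATF4 targets that rose there. They lie at chr15:11399659-11399908, minus strand, for Tars, at chr8:111033592-111033841, plus strand, for Aars, at chr6:55037751-55038000, plus strand, for Gars, at chr3:50443614-50443863, minus strand, for Slc7a11, and at chr7:45615491-45615740, minus strand, for Fgf21. In Yars and Iars the motif began 3 and 7 bases after the start, and 30 bases around it are shown, from chr4:129189895-129189924, plus strand, and from chr13:49682126-49682155, plus strand.
Tars: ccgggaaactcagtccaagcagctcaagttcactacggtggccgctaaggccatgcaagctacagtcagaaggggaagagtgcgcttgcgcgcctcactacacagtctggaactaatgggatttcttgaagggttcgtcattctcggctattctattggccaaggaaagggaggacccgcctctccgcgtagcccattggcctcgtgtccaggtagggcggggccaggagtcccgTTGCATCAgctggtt
Aars: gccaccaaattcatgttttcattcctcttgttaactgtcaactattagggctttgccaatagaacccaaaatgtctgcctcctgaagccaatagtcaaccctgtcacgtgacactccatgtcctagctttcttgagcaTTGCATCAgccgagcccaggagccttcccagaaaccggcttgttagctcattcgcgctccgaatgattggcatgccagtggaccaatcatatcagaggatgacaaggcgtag
Gars: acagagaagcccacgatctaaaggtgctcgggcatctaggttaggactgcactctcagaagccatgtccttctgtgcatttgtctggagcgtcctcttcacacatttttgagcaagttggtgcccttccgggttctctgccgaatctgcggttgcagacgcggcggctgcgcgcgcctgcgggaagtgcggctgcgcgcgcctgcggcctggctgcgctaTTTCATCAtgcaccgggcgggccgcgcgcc
Yars: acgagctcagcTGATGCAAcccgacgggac
Iars: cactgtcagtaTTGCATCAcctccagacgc
Slc7a11: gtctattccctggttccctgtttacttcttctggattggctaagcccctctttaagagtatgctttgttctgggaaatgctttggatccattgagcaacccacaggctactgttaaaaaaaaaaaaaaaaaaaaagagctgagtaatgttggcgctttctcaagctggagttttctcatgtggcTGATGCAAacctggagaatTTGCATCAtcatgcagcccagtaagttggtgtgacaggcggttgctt
Fgf21: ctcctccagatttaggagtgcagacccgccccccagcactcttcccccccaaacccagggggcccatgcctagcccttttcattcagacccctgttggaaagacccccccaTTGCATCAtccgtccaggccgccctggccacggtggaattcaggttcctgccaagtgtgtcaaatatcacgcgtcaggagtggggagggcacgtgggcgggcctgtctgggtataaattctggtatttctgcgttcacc
The motif of Tars began 15 bases before the start, that of Gars 30 bases and the first of Aars 112 bases before it, and a further motif of Aars began 9 bases after the start. Slc7a11, the cystine importer, had 2 motifs, and Fgf21, a hormone that the liver secretes when starved of amino acids, had 1.

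Levels per length were read from the authors' deposited FPKM, which scale counts by the listed gene length and the library total. Lars2, the mitochondrial leucyl-tRNA synthetase, had the highest FPKM of the 44 genes in all 3 group means, at 54.5 ± 2.4 in TA livers, 35.8 ± 3.5 in model livers and 47.3 ± 11 in normal livers (SD, n = 3 each), though in model livers Nars was level with it. The other 16 mitochondrial synthetases lay far lower, with a median of group means of 2.64 FPKM in TA, 3.23 in model and 3.12 in normal livers and a top value for Iars2 of 8.27, 9.06 and 7.82 in the TA, model and normal groups. The 21 cytosolic synthetases had a median of 8.78 FPKM in TA, 12.7 in model and 9.64 in normal livers. Their highest group mean belonged to Aars in TA livers (22.3 ± 5.3), to Nars in model livers (35.3 ± 7.1) and to Tars in normal livers (30.5 ± 3.7 FPKM, SD, n = 3 each). Mars2, the mitochondrial methionyl-tRNA synthetase, was the lowest of the 44 in every group mean, at 0.532 ± 0.17 FPKM in TA, 0.745 ± 0.13 in model and 0.299 ± 0.051 in normal livers, while Mars1 had 14.2 ± 4.2, 16.7 ± 2.6 and 18.3 ± 0.67 FPKM in the TA, model and normal groups. The listed lengths ran from 1797 bases for Gatc to 18102 bases for Eprs, and a gene's FPKM depends on the length listed for it. Lars2 shared a stretch of 72 bases at 98.6% identity with the annotated gene Gm15564, and the counting is not described in the sources. Reads of either gene may therefore have been counted for the other, and how far this bears on the level of Lars2 was not tested.

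**Figure D1:**
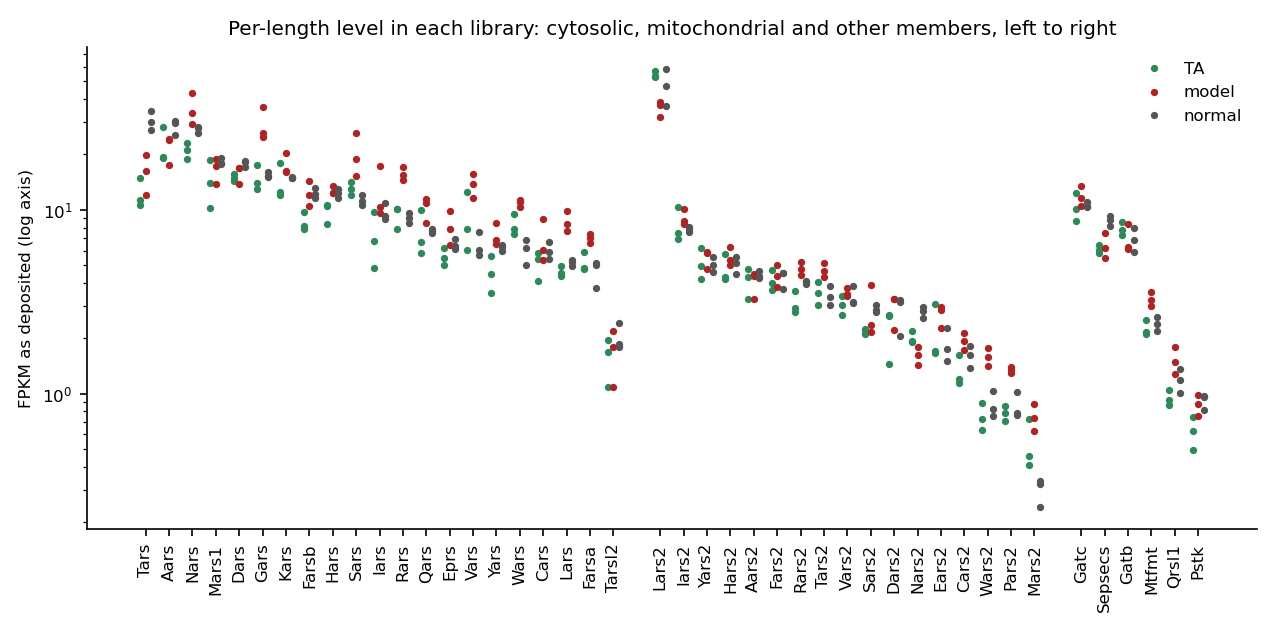
Deposited FPKM on a log axis for each of the 44 genes, 1 point a library, in TA, model and normal livers from left to right within a gene, with cytosolic, mitochondrial and other members in 3 blocks ordered by the normal mean. Lars2 stands above the other mitochondrial synthetases, whose group means do not pass 9.06 FPKM.

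Scaling bears on every direction below. TMM factors, which set the bulk of genes to no change, ran from 0.801 to 1.005 for TA libraries, from 1.186 to 1.436 for model libraries and from 0.824 to 0.842 for normal libraries. When counts were scaled by the totals only, the median over all genes shifted to a log2 change of 0.69 for model against normal, -0.59 for TA against model and 0.14 for TA against normal. Rises and falls below are therefore relative to the bulk of genes. Scaling moves all genes of a comparison by nearly the same amount, so it leaves a gene's place relative to the median gene as it is: 36 of the 44 genes lay below the median gene in model against normal and 12 of 44 in TA against model.

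The model group, on the MCD diet, was compared with the normal group, which was given saline. As any vehicle of the model group is not given, diet and saline cannot be told apart here. In this comparison 23 of the 44 genes fell and 0 rose (edgeR quasi-likelihood test, Benjamini-Hochberg adjusted p under 0.05), where 22.6% of the 13200 genes tested fell and 25.4% rose (48.1% called in all). At an unadjusted p under 0.05, 1 of the 44 genes was higher in model livers, and DESeq2 and limma-voom also called 0 rises, with 23 and 24 falls. An edgeR fit of only the 6 libraries compared called Vars and Mars2 as rises. The median log2 change was -0.47 over the 44 genes and 0.0047 over all genes, and the summed level of the 44 genes was 1774 ± 261 CPM (counts scaled to a common total with TMM factors) in model livers against 2784 ± 93.9 in normal livers (SD, n = 3 each). Scaled by library totals instead, 3 of the 44 genes fell (Tars, Nars2 and Sepsecs), 10 rose (Farsa, Gars, Lars, Mars2, Rars, Sars, Tars2, Vars, Wars and Wars2) and the median log2 change was 0.22, against 0.69 over all genes. Under that scaling 7269 of the 13200 genes tested rose and 831 fell. All 3 model libraries lay below all 3 normal ones for 27 of the 44 genes and above them for 2, where 30% of all genes were lower without overlap and 31.3% higher. Without model replicate 1, 12 genes fell, and without normal replicate 3, 14 did. Model replicate 1 had the lowest model CPM for 35 of the 44 genes.

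Among cytosolic synthetases 10 of 21 fell, where 22.6% of all genes did, with a median log2 change of -0.37 under TMM factors. With library totals 1 fell and 7 rose, where 831 of all 13200 genes fell and 7269 rose. Tars, the threonyl-tRNA synthetase (chr15:11382301-11399665, minus strand), had the largest fall. It had 87.3, 74.6 and 77.8 CPM in TA livers, 50.5, 80.8 and 82.2 CPM in model livers and 246, 189.8 and 213 CPM in normal livers. Every diet-fed library, with or without tormentic acid, lay below every normal one. The log2 change in model livers was -1.60 ± 0.20 (SE), or 0.329 times the normal level, with adjusted p = 0.000105. Tars also fell with library totals.

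Aars, the alanyl-tRNA synthetase (chr8:111033144-111057664, plus strand), had 262, 200.5 and 222 CPM in TA livers, 115, 189.7 and 156 CPM in model livers and 288, 329 and 338 CPM in normal livers. The model libraries were the lowest 3 and the normal ones the highest 3, with the TA libraries between them. Aars fell in model livers by 1.05 ± 0.21 on the log2 scale (adjusted p = 0.00165). Its exons in GENCODE M21 share 1326 bases on the same strand with Exosc6, so reads of both genes may not be told apart.

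Tarsl2, the second cytosolic threonyl enzyme, had 11.2, 14.7 and 9.13 CPM in TA livers, 5.21, 10.2 and 10.2 CPM in model livers and 15.2, 14.4 and 19.5 CPM in normal livers. It fell in model livers (log2 change -0.94 ± 0.27, adjusted p = 0.0143), with no overlap between model and normal libraries. Dars, the aspartyl-tRNA synthetase, had 67.7, 69.7 and 81.1 CPM in TA livers, 42.6, 61.7 and 51.0 CPM in model livers and 97.8, 89.0 and 94.8 CPM in normal livers. The 3 groups did not overlap, with model lowest and normal highest. Its log2 change in model livers was -0.86 ± 0.16 (adjusted p = 0.00128).

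Mars1, the cytosolic methionyl-tRNA synthetase (chr10:127296221-127311786, minus strand), had 63.2, 53.3 and 43.7 CPM in TA livers, 33.5, 50.3 and 45.1 CPM in model livers and 73.7, 77.4 and 74.2 CPM in normal livers. Every normal library was above every diet-fed one, and the TA and model libraries overlapped. Mars1 fell in model livers (log2 change -0.81 ± 0.18, adjusted p = 0.00364). Mars1 shares 68 exon bases on the other strand with Ddit3, a stress-response gene that rose in model livers (log2 change 1.42 ± 0.31, adjusted p = 0.0032), and whether the counting used strand is not given in the sources used here. Mars2 (chr1:55237177-55248470, plus strand) had 4.59, 9.23 and 6.44 CPM in TA livers, 5.92, 5.92 and 6.89 CPM in model livers and 4.57, 4.35 and 3.26 CPM in normal livers. Its model libraries all lay above its normal ones, but the difference did not pass the test (log2 change 0.62 ± 0.28, adjusted p = 0.0904). Mars2 was called as a rise with library totals and in a fit of only the 6 libraries compared. The remaining falls among cytosolic synthetases were those of Farsb (-0.69), Hars (-0.63), Cars (-0.52), Yars (-0.46) and Kars (-0.45, log2 changes), and with library totals the log2 changes of Hars, Cars, Yars and Kars were above 0. Vars had the highest log2 change of the class, 0.40 ± 0.19, which did not pass (adjusted p = 0.0967), though its model and normal libraries did not overlap. It too was called as a rise with library totals and in the fit of the 6 libraries compared.

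Among mitochondrial synthetases 9 of 17 fell in model livers, where 22.6% of all genes did, with a median log2 change of -0.55 under TMM factors. With library totals 1 fell and 3 rose, where 831 of all 13200 genes fell and 7269 rose. Without model replicate 1, 4 fell. Nars2, the mitochondrial asparaginyl-tRNA synthetase (chr7:96951505-97064758, plus strand), had 15.1, 14.9 and 16.8 CPM in TA livers, 7.11, 10.5 and 7.84 CPM in model livers and 21.7, 23.3 and 24.7 CPM in normal livers. The 3 groups did not overlap, with TA between model and normal. Its log2 change in model livers was -1.45 ± 0.18, with an adjusted p of 7.78e-05, the smallest of the 44 genes, and it also fell with library totals. Lars2 (chr9:123366927-123462666, plus strand) had 593, 711 and 728 CPM in TA livers, 251, 361 and 286 CPM in model livers and 632, 769.7 and 485 CPM in normal livers. Model libraries were below all others, while TA and normal libraries overlapped. Lars2 fell in model livers (log2 change -1.07 ± 0.23, adjusted p = 0.00254). Aars2, the mitochondrial alanyl enzyme, also fell (-0.80 ± 0.18, adjusted p = 0.00315), as did Sars2 (-0.74), Fars2 (-0.63), Vars2 (-0.60), Yars2 (-0.55), Hars2 (-0.55) and Iars2 (-0.47, log2 changes), of which Fars2, Vars2, Yars2, Hars2 and Iars2 had log2 changes above 0 with library totals. Hars and Hars2 share 195 exon bases on opposite strands, and Iars2 shares 2034 with Rab3gap2.

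Of the 6 other members 4 fell in model livers, where 22.6% of all genes did. Sepsecs, the enzyme that makes selenocysteinyl-tRNA (chr5:52640087-52669708, minus strand), had 44.5, 47.4 and 50.9 CPM in TA livers, 27.0, 43.7 and 30.3 CPM in model livers and 78.8, 67.4 and 73.4 CPM in normal livers. No group overlapped another, with TA between model and normal. It fell in model livers by 1.12 ± 0.18 on the log2 scale (adjusted p = 0.000501), also with library totals. Pstk, the kinase of the preceding step, fell by 0.74 ± 0.26 (adjusted p = 0.0355), but its annotated transcripts share 4652 bases with Ikzf5 on the other strand and 951 bases at 99.3% identity with Gm10356. The amidotransferase subunits Gatb (-0.66 ± 0.20) and Gatc (-0.51 ± 0.17, log2 changes) fell too, while both had log2 changes above 0 with library totals. Qrsl1, the third subunit, had a log2 change of -0.30 ± 0.28 and Mtfmt, which formylates the mitochondrial initiator, one of -0.23 ± 0.19, and neither passed.

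**Figure D2:**
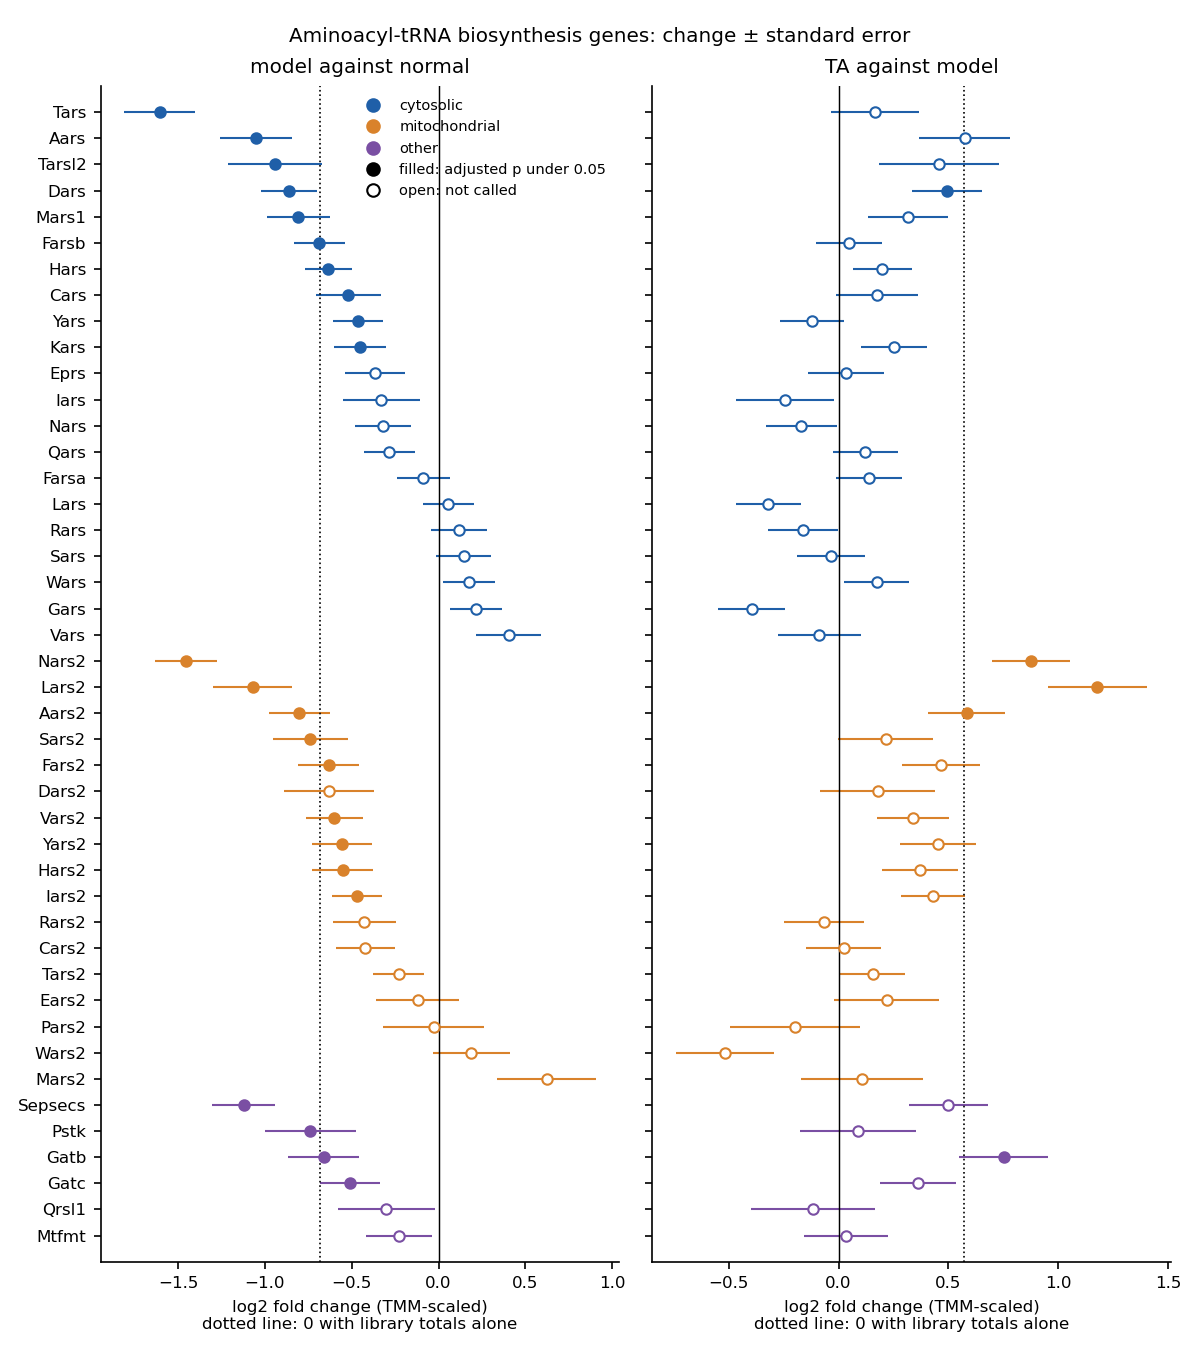
Log2 fold change with its standard error for the 44 genes by class, model against normal on the left and TA against model on the right, under TMM scaling. Filled points passed an adjusted p under 0.05 (23 on the left, 5 on the right), and points to the right of the dotted line would have a log2 change above 0 with library totals alone.

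The TA group was compared with the model group, which was on the same diet with no tormentic acid named. Any vehicle of either group is not given. Here 5 of the 44 genes rose and 0 fell under TMM scaling, where 11.8% of all genes tested rose and 11.1% fell (23% called in all), so the share of the 44 that rose, 11.4%, was close to that of all genes. At an unadjusted p under 0.05, 2 of the 44 were lower in TA livers, DESeq2 called 7 rises and 1 fall (Gars), and limma-voom called 7 rises and 0 falls. The median log2 change was 0.17 against -0.014 over all genes, and 32 of 44 were above 0. TA libraries lay above model ones without overlap for 12 genes and below them for 2, where 19% of all genes were higher without overlap and 20.1% lower. With library totals 1 rose (Lars2) and 14 fell, with a median of -0.40 against -0.59 over all genes. Under that scaling 401 of the 13200 genes tested rose and 5721 fell. The summed level was 2342 ± 26.9 CPM in TA livers against 1774 ± 261 CPM in model livers (SD, n = 3 each). The 5 rises were Lars2, Nars2, Gatb, Aars2 and Dars, and each of them had fallen in model livers. Over all genes tested, 1310 of the 1562 that rose in TA livers had also fallen in model livers, so most rises had this pattern. Genes with it made up 9.92% of all genes tested. The comparisons share the model libraries, so the pair of changes of a gene is not independent.

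Lars2, with the values given above, rose in TA livers by 1.18 ± 0.23 on the log2 scale, or 2.26 times the model level (adjusted p = 0.00582), and it rose in every setting tried, library totals included. All settings used the same counts, so the stretch that Lars2 shares with Gm15564 bears on each of them. Nars2 rose by 0.88 ± 0.18 (1.84 times, adjusted p = 0.00689) in every setting tried other than library totals. Gatb had 36.7, 35.0 and 41.8 CPM in TA livers, 18.6, 30.2 and 18.8 CPM in model livers and 35.7, 30.1 and 40.9 CPM in normal livers. Every TA library was above every model one, while model replicate 2 lay just above the lowest normal library. The log2 change of Gatb in TA livers was 0.75 ± 0.20 (adjusted p = 0.0224). Aars2 had 22.7, 22.9 and 19.4 CPM in TA livers, 11.1, 17.5 and 14.8 CPM in model livers and 25.1, 26.2 and 24.5 CPM in normal livers. Its groups did not overlap, and it rose in TA livers by 0.58 ± 0.18 (adjusted p = 0.0345). Dars rose by 0.49 ± 0.16 (adjusted p = 0.0463), and with library totals its log2 change was -0.080.

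The count of rises changed when single libraries were left out, which also leaves fewer libraries to test. It was 11 without model replicate 2, 2 without TA replicate 3, model replicate 1 or model replicate 3, and 3 without TA replicate 2. By class, 1 of 21 cytosolic, 3 of 17 mitochondrial and 1 of 6 other members rose, where 11.8% of all genes did. With library totals 9 cytosolic and 4 mitochondrial synthetases fell instead, and 1 mitochondrial one rose, where 5721 of all 13200 genes fell and 401 rose. Aars had a log2 change of 0.57 ± 0.21 and did not pass (adjusted p = 0.0645), although its TA libraries were all above its model ones. Tars had one of 0.17 ± 0.20 (adjusted p = 0.575), Mars1 0.32 ± 0.18 (adjusted p = 0.228) and Mars2 0.11 ± 0.28 (adjusted p = 0.811). The lowest log2 change was that of Wars2, the mitochondrial tryptophanyl enzyme, at -0.52 ± 0.22 (adjusted p = 0.115), followed by Gars at -0.40 ± 0.15 (adjusted p = 0.0819).

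In TA against normal livers, a comparison that shares libraries with both others, 6 of the 44 genes fell and 0 rose, where 5.03% of all genes fell and 10.7% rose (15.8% called in all). At an unadjusted p under 0.05, 2 were higher in TA livers, and DESeq2 and limma-voom called 0 rises with 8 and 5 falls. TA libraries lay above normal ones without overlap for 2 of the 44 genes and below them for 21, where 20.1% and 16.1% of all genes did. The median log2 change was -0.26 against 0.034 over all genes. Tars fell by 1.44 ± 0.20 on the log2 scale (0.369 times, adjusted p = 0.000906), and Farsb, Yars, Sepsecs, Nars2 and Hars also fell, while with library totals Tars and Sepsecs alone did. Without TA replicate 2 or normal replicate 3, 1 gene fell, and without TA replicate 3, normal replicate 1 or normal replicate 2, 2 fell. Lars2 (0.11 ± 0.22), Gatb (0.089 ± 0.20) and Aars2 (-0.22 ± 0.18) did not pass in this comparison.

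**Figure D3:**
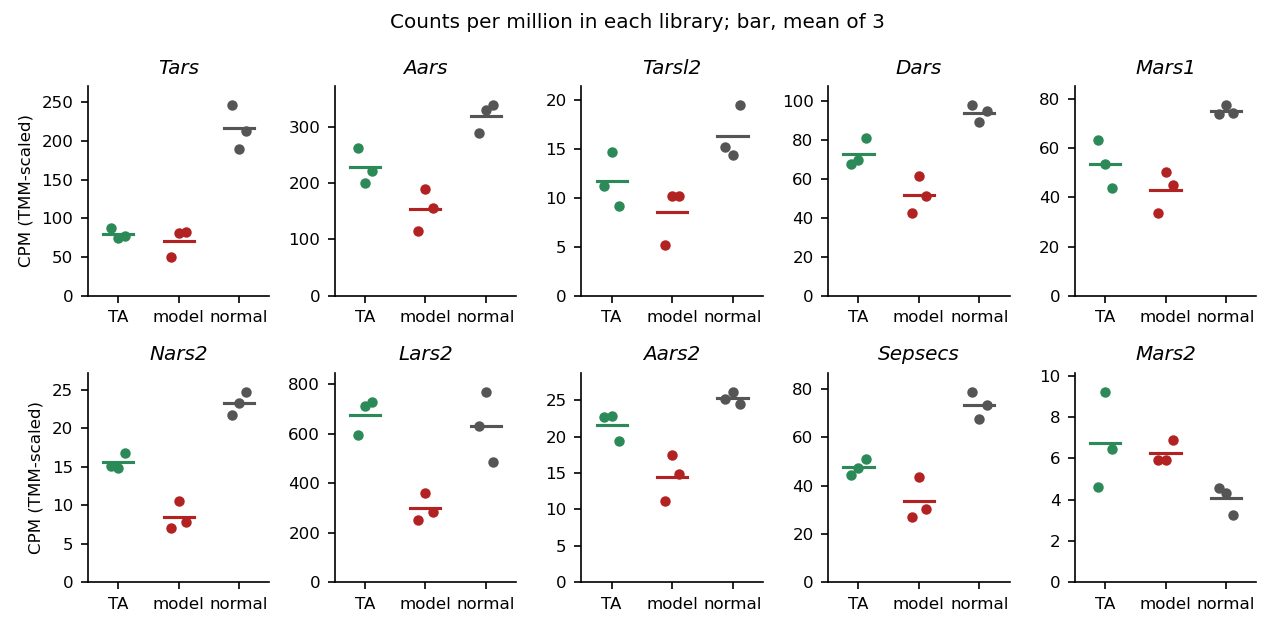
TMM-scaled CPM of 10 named genes in each library, TA, model and normal from left to right, with a bar at the mean of 3. On this scale Tars is low in both diet-fed groups, while the Lars2 libraries of the model group, at 251 to 361 CPM, lie below those of the TA and normal groups.

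The authors' deposited table of model against normal called 15 of the 44 genes at an adjusted p under 0.05, all as falls and all among the 23 that fell here. Its counterpart for TA against model called 3, as rises: Lars2, Nars2 and Gatb, at 2.28, 1.85 and 1.69 times the model level.

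The ratio of a cytosolic synthetase's counts to those of its mitochondrial partner in the same library does not depend on scaling. It was formed for 17 pairs as a log2 ratio with 0.5 added to each count, Eprs being set against both Ears2 and Pars2. Fars2 was set against Farsa and Tars2 against Tars, while Farsb, the other cytosolic phenylalanyl subunit, and Tarsl2 were not paired. With 3 against 3 libraries the exact two-sided permutation test cannot give a p below 0.1, so the differences are descriptions. In model against normal livers 8 of the 17 pairs did not overlap between the groups (exact p = 0.1 each, 0.212 after adjustment over the 17 pairs). Single genes did not overlap between these groups in 61.3% of all cases. The ratio was higher in model livers for 5 pairs and lower for 3.

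Mars1/Mars2 had log2 ratios of 3.77, 2.53 and 2.75 in TA livers, 2.5, 3.08 and 2.71 in model livers and 4.0, 4.14 and 4.49 in normal livers. All 6 diet-fed libraries lay below the normal ones, and the model mean was 1.45 below the normal mean on the log2 scale, a ratio of 0.366 times the normal ratio. Tars/Tars2 had ratios of 1.64, 1.46 and 1.57 in TA livers, 1.24, 1.58 and 1.73 in model livers and 2.93, 2.91 and 2.92 in normal livers. The 3 normal ratios were almost the same, and the model mean was 1.40 lower. Tars2 itself had 27.9, 27.2 and 26.2 CPM in TA livers, 21.3, 27.0 and 24.7 CPM in model livers and 32.3, 25.1 and 28.0 CPM in normal livers, which overlapped.

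Lars/Lars2 and Nars/Nars2 went the other way. Lars/Lars2 had log2 ratios of -4.61, -4.76 and -4.46 in TA livers, -2.98, -3.37 and -2.95 in model livers and -4.18, -4.60 and -3.86 in normal livers. The model ratios were the highest, by 1.12 over the normal mean, while TA was 1.51 below model. Nars/Nars2 had ratios of 2.73, 2.79 and 2.6 in TA livers, 3.67, 3.54 and 4.06 in model livers and 2.67, 2.63 and 2.58 in normal livers. The model mean was 1.13 above normal and the TA mean 1.04 below model, and TA and normal libraries overlapped. The cytosolic partners had no called change under TMM scaling, though Lars rose with library totals, with a log2 change in model livers of 0.056 ± 0.15 for Lars and -0.32 ± 0.16 for Nars (adjusted p = 0.775 and 0.124).

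Lars had 24.2, 26.1 and 33 CPM in TA livers, 31.9, 34.9 and 37.0 CPM in model livers and 34.8, 31.6 and 33.4 CPM in normal livers. Nars had 100.6, 103 and 102 CPM in TA livers, 90.4, 123 and 131 CPM in model livers and 138, 144 and 148 CPM in normal livers. Lars overlapped between model and normal livers, while the model libraries of Nars lay below the normal ones. Vars had 69.3, 49.4 and 42.4 CPM in TA livers, 54.9, 55.0 and 61.5 CPM in model livers and 38.8, 50.4 and 40.4 CPM in normal livers, and Vars2 had 18.4, 18.6 and 18.2 CPM in TA livers, 13.1, 17.4 and 13.2 CPM in model livers and 20.6, 20.4 and 25.2 CPM in normal livers. In model livers Vars was above and Vars2 below every normal library. Vars/Vars2 (1.01), Sars/Sars2 (0.90) and Rars/Rars2 (0.55) were also higher in model livers, and Aars/Aars2 (-0.25) was lower, as differences of mean log2 ratios.

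In TA against model livers 6 of 17 pairs did not overlap (exact p = 0.1 each, 0.283 adjusted), where 39% of single genes did not. Besides Lars/Lars2 and Nars/Nars2, the ratio was lower in TA livers for Iars/Iars2 (-0.66), Yars/Yars2 (-0.59) and Sars/Sars2 (-0.27), and higher for Wars/Wars2 (0.68, differences of mean log2 ratios). Iars had 51.2, 39.7 and 31.7 CPM in TA livers against 36.1, 46.0 and 63.5 CPM in model livers, and Iars2 had 91.8, 74.7 and 76.6 CPM in TA livers against 52.7, 65.5 and 62.5 CPM in model livers. Iars overlapped and Iars2 was higher in every TA library. Neither was called by edgeR with TMM factors, while DESeq2 called Iars2 as a rise and library totals gave a fall of Iars. Iars shares 1656 transcript bases at 96.0% identity with Gm4849. Yars had 33.2, 29.7 and 26.1 CPM in TA livers against 27.6, 34.2 and 35.1 CPM in model livers, and Yars2 had 19.4, 17.4 and 16.6 CPM in TA livers against 10.7, 15.7 and 12.7 CPM in model livers. Yars overlapped and Yars2 was higher in every TA library. Neither was called by edgeR with TMM factors, while with library totals Yars fell.

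Wars had 32.5, 28.5 and 34.0 CPM in TA livers and 27.8, 30 and 26.5 CPM in model livers, and Wars2 had 5.26, 4.82 and 4.70 CPM in TA livers and 5.96, 7.88 and 7.36 CPM in model livers. The groups overlapped for Wars and not for Wars2, and neither passed the test under TMM scaling, while with library totals Wars2 fell.

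Summed over all 17 mitochondrial synthetases, cytosolic counts were 1.17 to 1.47 times the mitochondrial ones in TA livers, 1.96 to 2.40 times in model livers and 1.51 to 2.03 times in normal livers. The model and normal ranges overlapped. With Lars2 left out the ratio was 3.98 to 4.28 in TA livers, 4.58 to 5.27 in model livers and 4.80 to 5.10 in normal livers, and the model and normal ranges again overlapped. With and without Lars2, every TA library lay below every model and every normal library. The cytosolic sums include Kars and Gars, which serve both compartments.

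**Figure D4:**
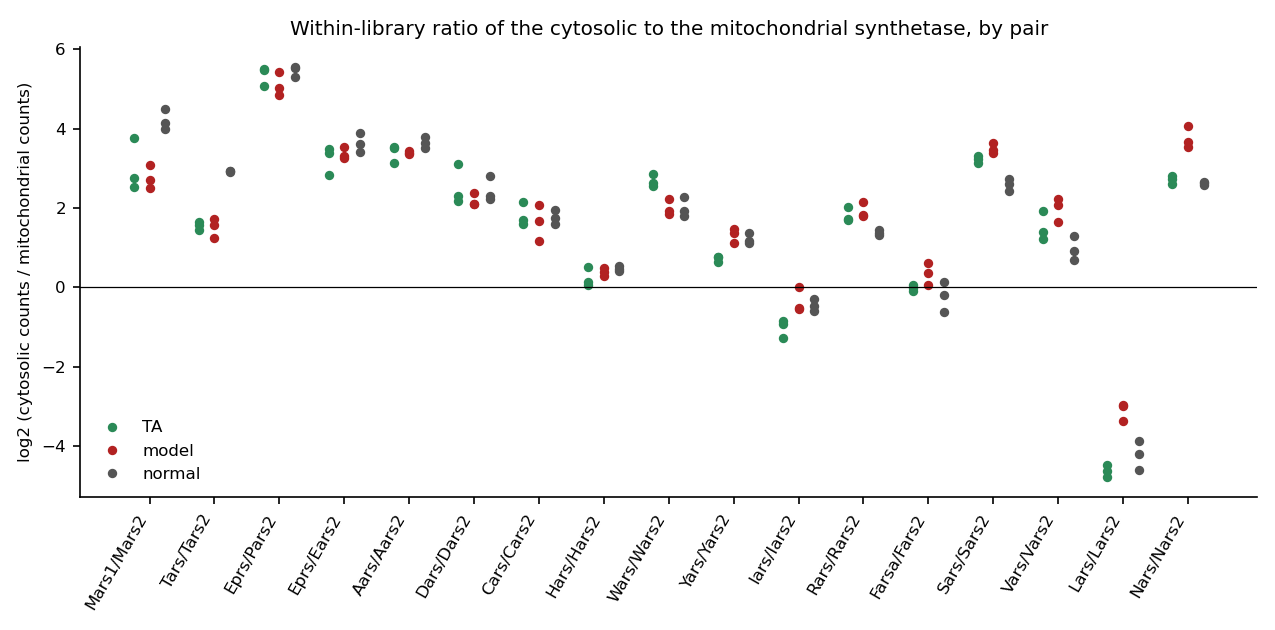
Log2 ratio of cytosolic to mitochondrial counts in each library for the 17 pairs, ordered by the difference between model and normal livers, with TA, model and normal from left to right within a pair. Mars1/Mars2 and Tars/Tars2 at the left are lower in model than in normal livers, and Lars/Lars2 and Nars/Nars2 at the right are higher.

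The 13 cytosolic synthetases known as ATF4-responsive were set beside 30 ATF4 targets outside the pathway. In model livers 5 of the 13 fell (Tars, Aars, Mars1, Yars and Cars) and 0 rose, also at an unadjusted p under 0.05, with a median log2 change of -0.33. The 8 other cytosolic synthetases had 5 falls, 0 rises and a median of -0.54. Of the 30 targets outside the pathway 11 rose and 4 fell, with a median of 0.73, where 25.4% of all genes rose and 22.6% fell. With library totals the 13 had 5 rises and 1 fall, the 8 had 2 rises and 0 falls and the 30 had 20 rises and 1 fall, with medians of 0.37, 0.14 and 1.43. Under that scaling 7269 of all 13200 genes tested rose and 831 fell, with a median of 0.69. Slc7a11 had 2.54, 4.49 and 5.31 CPM in TA livers, 11.0, 8.86 and 9.27 CPM in model livers and 0.0737, 0.0852 and 0.148 CPM in normal livers (adjusted p = 2.22e-06 for model against normal). Nupr1, a stress-induced chromatin protein, rose by 3.22 ± 0.39 and Fgf21 by 4.0 ± 0.53 on the log2 scale (adjusted p = 6.81e-05 and 0.00013). Shmt2, the mitochondrial serine hydroxymethyltransferase, had the smallest p among the falls, at a log2 change of -1.28 ± 0.22 (adjusted p = 0.000743). Atf4 itself had a log2 change of -0.087 ± 0.15, though ATF4 is controlled mainly at translation. Among genes with the motif TGATGNAA in the window, Tars, Aars and Yars fell and Gars and Iars were not called. Of the 9 ATF4 targets with it, Slc7a11, Fgf21, Nupr1 and Trib3 rose, Herpud1 fell, and Asns, Chac1, Pycr1 and Slc1a4 were not called.

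In TA against model livers 0 of the 13 ATF4-responsive synthetases passed the test in either direction (edgeR; at an unadjusted p under 0.05, 1 was higher and 1 lower), with a median of -0.035. DESeq2 called Aars as a rise and Gars as a fall, and limma-voom called Aars as a rise. Of the 30 other targets 11 fell and 2 rose, with a median of -0.46, where 11.1% of all genes fell and 11.8% rose. With library totals 7 of the 13 and 17 of the 30 fell, 0 and 1 rose, and the medians were -0.63 and -1.06. Under that scaling 5721 of all 13200 genes tested fell and 401 rose, with a median of -0.59. Psat1, of serine synthesis, had 3.99, 0.980 and 1.48 CPM in TA livers against 11.2, 8.86 and 16.5 CPM in model livers, and fell by 2.46 ± 0.46 on the log2 scale (adjusted p = 0.00531). Fgf21 had 14.5, 7.35 and 10.8 CPM in TA livers against 72.5, 23.2 and 67.5 CPM in model livers, and fell by 2.32 ± 0.47 (adjusted p = 0.007). Herpud1, of endoplasmic reticulum protein quality control, rose by 1.21 ± 0.23 (adjusted p = 0.00534), and Shmt2 rose by 1.02 ± 0.22 (adjusted p = 0.00841).

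**Figure D5:**
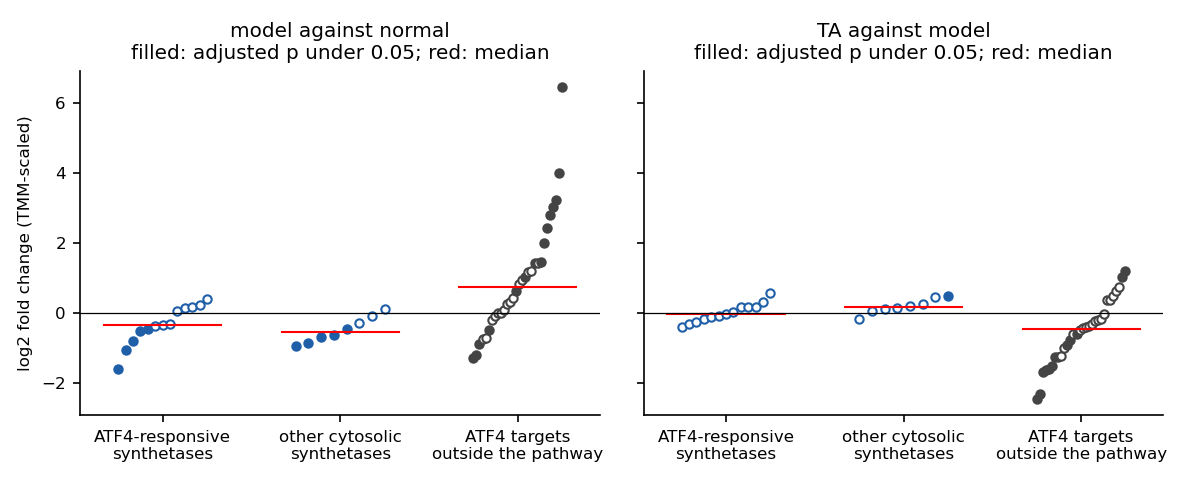
Log2 fold changes under TMM scaling of 13 ATF4-responsive synthetases, the 8 other cytosolic synthetases and 30 ATF4 targets outside the pathway, model against normal on the left and TA against model on the right, with filled points for an adjusted p under 0.05 and a red line at the median. Under TMM scaling the medians in model livers are -0.33, -0.54 and 0.73 in that order of lists, against 0.0047 over all genes. With library totals they are 0.37, 0.14 and 1.43, against 0.69 over all genes.

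Other translation genes were counted in the same fits, in which 22.6% of all genes fell and 25.4% rose in model against normal livers, and 11.1% fell and 11.8% rose in TA against model livers. With library totals 831 of 13200 genes fell and 7269 rose in the former comparison, and 5721 fell and 401 rose in the latter. The multisynthetase complex, a cytosolic assembly of synthetases with the scaffold proteins Aimp1, Aimp2 and Eef1e1, had 3 of 11 genes that fell in model livers (Dars, Mars1 and Kars) and 0 that rose, while with library totals 0 fell and 5 rose. Its scaffolds had log2 changes of -0.14 ± 0.13, 0.033 ± 0.20 and 0.042 ± 0.22 in the order named. In TA livers against model livers 1 of the 11, Dars, rose and 0 fell, while with library totals 0 rose and 6 fell. Of 10 genes of cytosolic elongation factors and their modifying enzymes 6 fell in model livers, though with library totals 0 fell and 1 rose, with Eefsec, the selenocysteine elongation factor, at -0.61 ± 0.18 (adjusted p = 0.015), Eif5a at -0.53 ± 0.17 and Eef2k at -0.62 ± 0.20 (log2 changes). Of 10 mitochondrial translation factor genes 5 fell, though with library totals 0 fell and 2 rose, with Gfm1 at -0.72 ± 0.16 (adjusted p = 0.00379), Gfm2 at -0.65 ± 0.17 and Mtif2 at -0.61 ± 0.18. In TA livers against model livers 0 of either list of 10 passed in edgeR, and 3 of each were higher and 0 lower at an unadjusted p under 0.05, while with library totals 2 of the elongation factors and 1 of the mitochondrial factors fell. Of 6 tested genes listed for proofreading of charged transfer RNA and related steps, 4 fell in model livers and with library totals 0 did, with Prorsd1 at -0.85 ± 0.18 (adjusted p = 0.00261), Dtd1 at -0.91 ± 0.22 and Dalrd3, known for transfer RNA methylation, at -0.60 ± 0.15, and under TMM scaling Dalrd3 rose in TA livers (0.59 ± 0.15, adjusted p = 0.0154).

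Levels of cell type markers differed between the same groups. Of all genes tested 25.4% rose and 22.6% fell in model against normal livers, and 11.8% rose and 11.1% fell in TA against model livers. With library totals 7269 of 13200 genes rose and 831 fell in the former comparison, and 401 rose and 5721 fell in the latter. All 8 hepatocyte markers, such as Alb and Ttr, fell in model livers against normal livers and 6 of 8 rose in TA livers against model livers (5 and 3 with library totals), and their summed level was 97040 to 132400 CPM in TA, 43610 to 70820 in model and 107800 to 135700 in normal livers. Of 8 macrophage markers 7 rose in model livers and 5 fell in TA livers against model livers (8 and 8 with library totals), with sums of 1199 to 1959 CPM in TA, 2770 to 3188 in model and 392 to 398 in normal livers. Markers of dividing cells rose in model livers for 4 of 4 and fell in TA livers against model livers for 3, with sums of 10.1 to 23.1 CPM in TA, 51.2 to 77.1 in model and 6.52 to 11.6 in normal livers. Of 4 endothelial markers 3 rose in model livers and 2 fell in TA livers against model livers, with sums of 90.3 to 221 CPM in TA, 246 to 354 in model and 139 to 144 in normal livers. Stellate cell markers rose in model livers for 4 of 6 (sums of 366 to 839 CPM in TA, 622 to 1516 in model and 176 to 268 in normal livers), cholangiocyte markers for 3 of 4 (13.2 to 49.7, 12.6 to 80.7 and 11.3 to 12.4 CPM in TA, model and normal livers) and T cell markers for 3 of 4 (12.3 to 14.2, 14.6 to 22.8 and 4.96 to 10.1 CPM in TA, model and normal livers), and 0 genes of these 3 lists passed in TA against model livers with TMM factors in edgeR. At an unadjusted p under 0.05, 2 stellate, 0 cholangiocyte and 1 T cell markers were lower in TA livers and 0 higher, and with library totals 4, 1 and 3 fell in that order of lists. Of the neutrophil markers 2 of 2 tested rose in model livers, 0 of 3 tested B and plasma cell markers passed, and the only pancreatic acinar marker tested fell. No marker of these lists was at 0 in every library. The part of cell composition in the changes of the 44 genes was not tested, and in whole liver fewer cells of a type and less RNA per cell cannot be told apart.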

How the data were processed

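RNA sequencing measured 9 mouse liver libraries. Trizol extraction and a NEBNext Ultra RNA kit are named in the labels' protocols, and mm9 in the submitters' processing notes. Aligner, counting tool and strand use are not given in the sources used here. All tests used the read counts per gene and library, which are raw per the file headers. The authors' FPKM equal counts divided by listed gene length and library total to within 3.54 ppm and gave levels per length. The authors' deposited tables of 2 comparisons hold a fold (ratio of group means) and p-values, with settings not stated. Of the table's Ensembl identifiers 21794 stood in GENCODE M21 and 514 of them had the same start there, so the coordinates printed are those of M21 on GRCm38. Of the expression sheet's lines, 1 reached this work emptied.

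Genes were kept by filterByExpr of edgeR 4.0.16 under R 4.3.3 (minimum count 10, minimum total 15), which left 13200. A quasi-likelihood model of group with TMM factors was run over the 9 libraries together, and p-values were adjusted by Benjamini-Hochberg over all genes tested and called at 0.05. Every adjusted p comes from this test unless another tool is named. A standard error is the log2 change divided by the root of its F value. The fit was also run on simulated counts with few genes changed and as many rises as falls. That run does not test the scaling on which the directions depend. Alternatives were DESeq2 1.42.0, limma-voom (limma 3.58.1), other scalings and filters, fits of the 6 libraries compared, a replicate block and leaving out each library. Exact permutation tests were written in Python with scipy 1.17.1, and similar transcripts (at least 50 bases at 95% identity or more) were found with blastn 2.17.0.

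The members and the gene lists, written from general knowledge, were chosen with earlier results of these data known. Per-library values were given for up to 8 called members with the largest log2 change in each main comparison, for Mars1 and Mars2, and for the 5 pairs with the largest ratio differences without overlap. Related lists were given by counts, up to 3 members of smallest p and the smallest p in the other direction. Ddit3, Atf4, the multisynthetase scaffolds and genes with the motif were named outside that rule. Ddit3 stood in 2 rows of the table, of which the one with more counts was used.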

Additional observations from a re-analysis of the deposited data

How the results depend on the processing

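Settings other than library totals kept the direction of every called change. With library totals the log2 change turned above 0 in model against normal for Cars (0.17), Fars2 (0.037), Gatb (0.0022), Gatc (0.16), Hars (0.048), Hars2 (0.14), Iars2 (0.21), Kars (0.24), Vars2 (0.074), Yars (0.22) and Yars2 (0.12), and below 0 in TA against model for Dars (-0.080). Totals gave 10 rises and 3 falls in model against normal (cytosolic 7 and 1, mitochondrial 3 and 1), 1 rise and 14 falls in TA against model (cytosolic 0 and 9, mitochondrial 1 and 4) and 2 falls in TA against normal; by construction they leave the shift of the median gene in. Over all 13200 genes tested, totals gave 7269 rises and 831 falls in model against normal and 401 and 5721 in TA against model. In TA against normal they gave 1507 and 416. The share of rises among all called genes was 89.7% with totals and 52.9% with TMM in model against normal, 6.55% and 51.5% in TA against model, and 78.4% and 68.1% in TA against normal. Fits of the 6 libraries compared gave 2 rises in model against normal (1 cytosolic, Vars, and 1 mitochondrial, Mars2) and 3 rises in TA against model (0 cytosolic). DESeq2 gave 1 fall in TA against model (1 cytosolic). Cytosolic rises in TA against model were 2 with DESeq2 and with limma-voom, and 0 with DESeq2 size factors, with no filter on low counts and with the block. The cause of these moves was not tested.

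Leaving out 1 library gave 12 to 24 falls and 0 rises in model against normal (cytosolic 7 to 10, mitochondrial 4 to 11 falls), 2 to 11 rises and 0 to 1 falls in TA against model (cytosolic 0 to 2 rises and 0 to 1 falls, mitochondrial 2 to 6 rises), and 1 to 5 falls and 0 to 1 rises in TA against normal. Pairs that did not overlap were 5 to 6 higher and 3 to 5 lower in model against normal, 1 to 2 and 5 to 7 in TA against model, and 3 to 5 and 5 to 6 in TA against normal. Called in every setting other than library totals were the falls of Aars, Aars2, Dars, Farsb, Hars, Lars2, Mars1, Nars2, Sepsecs and Tars in model against normal, the rises of Lars2 and Nars2 in TA against model and the fall of Tars in TA against normal.

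No pairing of libraries by replicate number was seen: after removal of group means, 1 of 9 same-numbered pairs had a correlation over 0.1. So few libraries cannot exclude a pairing by number. With the replicate block 3 members rose in TA against model and 2 fell in TA against normal, and pairs with the same sign in all same-numbered differences were 8 lower in TA against model, and 5 higher and 8 lower in TA against normal. With 3 libraries a group, a p that misses the threshold does not show that levels did not differ.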
